A study of Macaca nemestrina with 58 samples.

Results

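The genes described here encode the mitochondrial respiratory chain and ATP synthase in vaginal pinch biopsies of pig-tailed macaques (Macaca nemestrina). They were chosen by symbol: a probe set with a single gene symbol that starts with NDUFA, NDUFB, NDUFC, NDUFS, NDUFV, SDH followed by A to D, UQCR, COX4 to COX8 or ATP5, with the probe set of highest mean taken for each gene. This gave 68 genes of the 14132 named by a single symbol on the array. Of these, 66 passed the filter on dim probe sets, and ATP5PB and SDHAF3 did not. By role, the 66 were 24 subunits and 6 assembly factors of complex I, 3 subunits and 3 assembly factors of complex II, 6 genes of complex III, 10 of complex IV and 14 of complex V. No probe set carried the symbol of a gene encoded in mitochondrial DNA, so the genes described are all nuclear.

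The respiratory chain lies in the inner mitochondrial membrane. Complexes I and II take electrons from NADH and succinate, complex III passes them to cytochrome c, and complex IV hands them to oxygen, while complexes I, III and IV pump protons. Complex V, the ATP synthase, uses the proton gradient to make ATP. Several subunits have alternative forms that differ between tissues or with oxygen supply, among them COX4I2, COX6A2, COX7A1 and NDUFA4L2. In the vagina, the stratified squamous epithelium matures and thickens under estrogen and lies on a stroma of fibroblasts, vessels and smooth muscle.

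The study placed 58 arrays designed for the rhesus macaque on biopsies of 15 animals, so the probes were designed on another macaque species. All animals were first biopsied untreated, at a labelled dose of 0, in a cycle phase given by the labels. Of the 28 baseline samples, 10 came from the early and 5 from the late follicular phase, and 4 from the early and 9 from the late luteal phase. DMPA, depot medroxyprogesterone acetate, an injectable progestin, was given to 9 animals at doses labelled 0.5, 1.5 or 2.5 without a unit, and was sampled 8 times at 1D4 and 9 times at 2D2, as the labels call the times. The other 6 animals were in the arm labelled LNG, on a combined oral contraceptive, 3 of them labelled High and 3 Low, sampled 6 times each at what the labels call 5th and 7th; 5 of these arrays carry the label (A-), whose meaning the labels do not give. Every later biopsy is labelled with a drug, so the effects of the drug, of time and of having been biopsied before cannot be told apart. The labels do not say whether the drug was still being given at 7th or for the (A-) arrays. Ages are not given in the labels. The series' design text puts the biopsies under the oral contraceptive 5 weeks from its start and those under DMPA 2 weeks from the second injection, and does not say what 1D4 and 7th are.

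The arrays had medians between 6.07 and 6.25 on the log2 scale, and their number limits the precision. A duplicate array of a late follicular biopsy was averaged with its partner; both arrays' values differed with an SD of 0.202 on the log2 scale over the respiratory chain genes. The mean of the 66 genes lay between 9.95 and 10.56 in the 28 baseline samples, with a median of 10.30. It had a median of 10.26 at DMPA 1D4, 10.22 at 2D2, 10.22 at LNG 5th and 10.11 at LNG 7th. The groups overlapped throughout. Animal BB4800 at LNG 5th stood apart at 9.61, below the range of 10.11 to 10.39 of the other 5 samples of that time. That biopsy also had the lowest mean of mature squamous genes of all samples, 6.84. Its mean of fibroblast and smooth muscle genes, 12.23, was the highest of all samples. Animal BB770 at DMPA 2D2 had the highest value of all samples, 10.59.

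**Figure D1:**
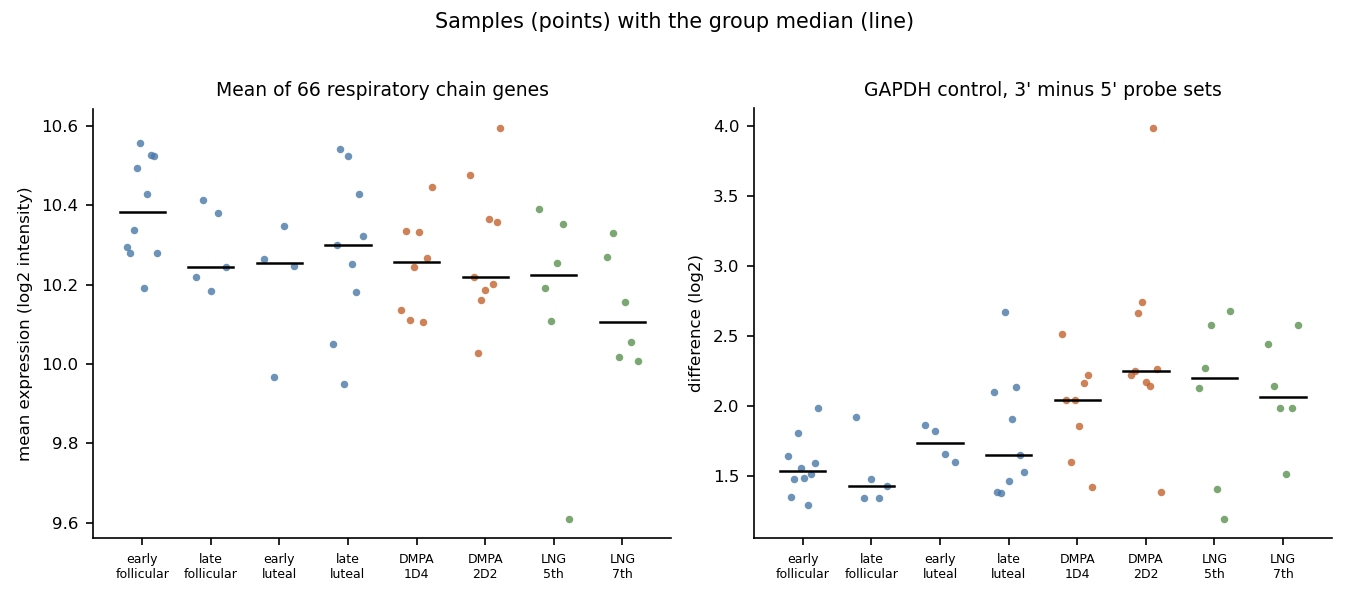
Left, the mean log2 intensity of the 66 respiratory chain genes in each sample, by group; right, the difference between the 3' and 5' probe sets of the GAPDH control in the same samples (log2). Points are samples and lines are group medians; the means of the 66 genes overlap between all groups, while the GAPDH difference has a median of 1.58 at baseline and 2.25 at DMPA 2D2.

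The first comparison asks how the biopsies at DMPA 2D2 differed from baseline. Most respiratory chain genes had fitted levels close to baseline, while a few forms and subunits stood apart from the rest. NDUFA4L2 fell 6.59-fold, SDHA rose 1.74-fold, COX7A1 rose 1.64-fold and ATP5MC1 fell 1.47-fold. In limma, 9 of 66 genes passed at an adjusted p under 0.05 (13.6%), against 31.3% of the 11199 genes tested. Of the 9, 3 were higher, beside 17.2% of all genes, and 6 were lower, beside 14.1% of all genes. The median log2 difference of the 66 genes was -0.03, and that of all genes was 0.05. Differences within 0.25 on the log2 scale were found for 57 of the 66 genes (86.4%) and for 58.2% of all genes. In bulk biopsies, fewer cells of a type and less RNA per cell cannot be told apart.

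Complex I, the NADH dehydrogenase, had 1 of 24 subunit genes that passed at 2D2, and their median difference was -0.06. The core subunit genes NDUFS1 and NDUFV1, which carry iron-sulfur and NADH-binding sites, had differences of -0.19 ± 0.09 (SE) and 0.05 ± 0.08. NDUFA9, an accessory subunit gene, lay between 9.35 and 10.41 at baseline with a median of 10.04, and between 9.44 and 10.64 at 2D2 with a median of 9.67. The ranges overlap. NDUFA9 fell by 0.33 ± 0.11 (SE, limma adjusted p = 0.0256) and was lower in 8 of 9 animals, each set against its own baseline biopsies. Among the 6 assembly factor genes, NDUFAF5, whose product modifies a core subunit during assembly, fell by 0.46 ± 0.13 (limma adjusted p = 0.00785). Its level had a median of 7.88 at baseline (7.43 to 9.08) and 7.46 at 2D2 (7.14 to 8.12). Its second kept probe set had a log2 difference of -0.50.

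Complex II, succinate dehydrogenase, also belongs to the citric acid cycle, and its measured subunit genes moved in different directions. SDHA, the catalytic flavoprotein subunit, had a median of 9.52 at baseline (8.55 to 10.52) and 10.47 at 2D2 (9.89 to 10.95). The higher baseline samples reach into the 2D2 range. SDHA rose by 0.80 ± 0.18 (SE, limma adjusted p = 0.00186) and was higher in 9 of 9 animals, by 0.18 to 1.33. SDHB, the iron-sulfur subunit gene, had a difference of 0.11 ± 0.09 and did not pass. SDHC, a membrane anchor gene, had a median of 9.48 at baseline (8.73 to 10.13) and 9.13 at 2D2 (8.77 to 10.07). It fell by 0.38 ± 0.13 (limma adjusted p = 0.0240), in 8 of 9 animals. A dimmer probe set of SDHC had a difference of 0.41 (limma adjusted p = 0.0241), so the direction for SDHC differs between its probe sets. Of 27 genes with several kept probe sets, SDHC, ATP5F1D and NDUFA6 had another one that passed at 2D2 with the sign opposite to that of the brightest (3 of 27). None of the 3 complex II assembly factor genes passed.

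Complex III, the cytochrome bc1 complex, had differences between -0.26 and -0.03 in its 6 genes, with a median of -0.15. UQCRQ, a small subunit gene, was the gene that passed: it fell by 0.24 ± 0.09 (SE, limma adjusted p = 0.0454). It passed in 15 of 31 alternative settings, and did not pass with each array centred on its median (limma adjusted p = 0.0703), with quantile normalization (0.0775) or without the filter on dim probe sets (0.0622). Its level had a median of 12.22 at baseline (11.66 to 12.49) and 11.92 at 2D2 (11.59 to 12.49). The core protein genes UQCRC1 and UQCRC2 had differences of -0.09 ± 0.09 and -0.22 ± 0.11 and did not pass.

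Complex IV, cytochrome c oxidase, held the widest spread of differences among the complexes. NDUFA4L2, a hypoxia-inducible relative of the oxidase subunit gene NDUFA4, had a median of 10.30 at baseline (6.57 to 11.85) and 6.66 at 2D2 (6.02 to 8.24). The 2D2 range reaches into the lower baseline samples, and most baseline samples lie above it. NDUFA4L2 fell by 2.72 ± 0.54 (SE, limma adjusted p = 0.000641) and was lower in 9 of 9 animals, by 0.61 to 4.43 on the log2 scale. NDUFA4 itself had a difference of -0.01 and a median of 10.79 at 2D2, beside 10.80 at baseline. COX7A1, the form of subunit VIIa known from heart and skeletal muscle, had a median of 10.51 at baseline (9.68 to 11.19) and 11.28 at 2D2 (10.84 to 11.58). It rose by 0.72 ± 0.16 (limma adjusted p = 0.00136) and was higher in 9 of 9 animals. COX7A2, the form found in most tissues, rose by 0.33 ± 0.09 (limma adjusted p = 0.00838), and its second probe set had a difference of 0.05. The other tissue-restricted forms did not pass: COX4I2 had a difference of -0.19 ± 0.15 and COX6A2 one of -0.16 ± 0.09. No probe set carried the symbol of COX4I1, COX5B, COX6B2, COX7B2 or COX8C alone, and these genes are not analysed here.

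Complex V had 1 of 14 genes that passed at 2D2. ATP5MC1 is 1 of several genes for the same subunit c, which forms the rotor ring of the synthase. Its level had a median of 11.40 at baseline (10.80 to 11.69) and 10.76 at 2D2 (10.45 to 11.64), and without BB770 the highest 2D2 value was 10.94. ATP5MC1 fell by 0.56 ± 0.13 (SE, limma adjusted p = 0.00190), in 8 of 9 animals, and its second probe set had a difference of -0.78. The other subunit c genes ATP5MC2 and ATP5MC3 had differences of 0.07 and -0.08 and did not pass. Under the older symbol ATP5G1, the brightest probe set had a difference of 0.12. A dimmer one, with a mean of 5.89, rose by 0.75 ± 0.19 (SE, limma adjusted p = 0.00347), opposite in direction to ATP5MC1. At 1D4 this dimmer probe set rose by 0.74 ± 0.20 (limma adjusted p = 0.00958). Near-identical copies of this gene cannot be told apart here, so the direction differs between the probe sets under both symbols. The catalytic beta subunit gene ATP5F1B had a difference of -0.25 ± 0.10 (limma adjusted p = 0.0569), and ATP5IF1, the gene of the inhibitor protein, one of -0.02. After quantile normalization between arrays, ATP5F1D, ATP5F1E, ATP5MJ and ATP5PD also passed, all higher. A dimmer probe set of ATP5F1D fell by 0.34 ± 0.11 (SE, limma adjusted p = 0.0151) in the values as deposited, so its direction differs between probe sets.

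**Figure D2:**
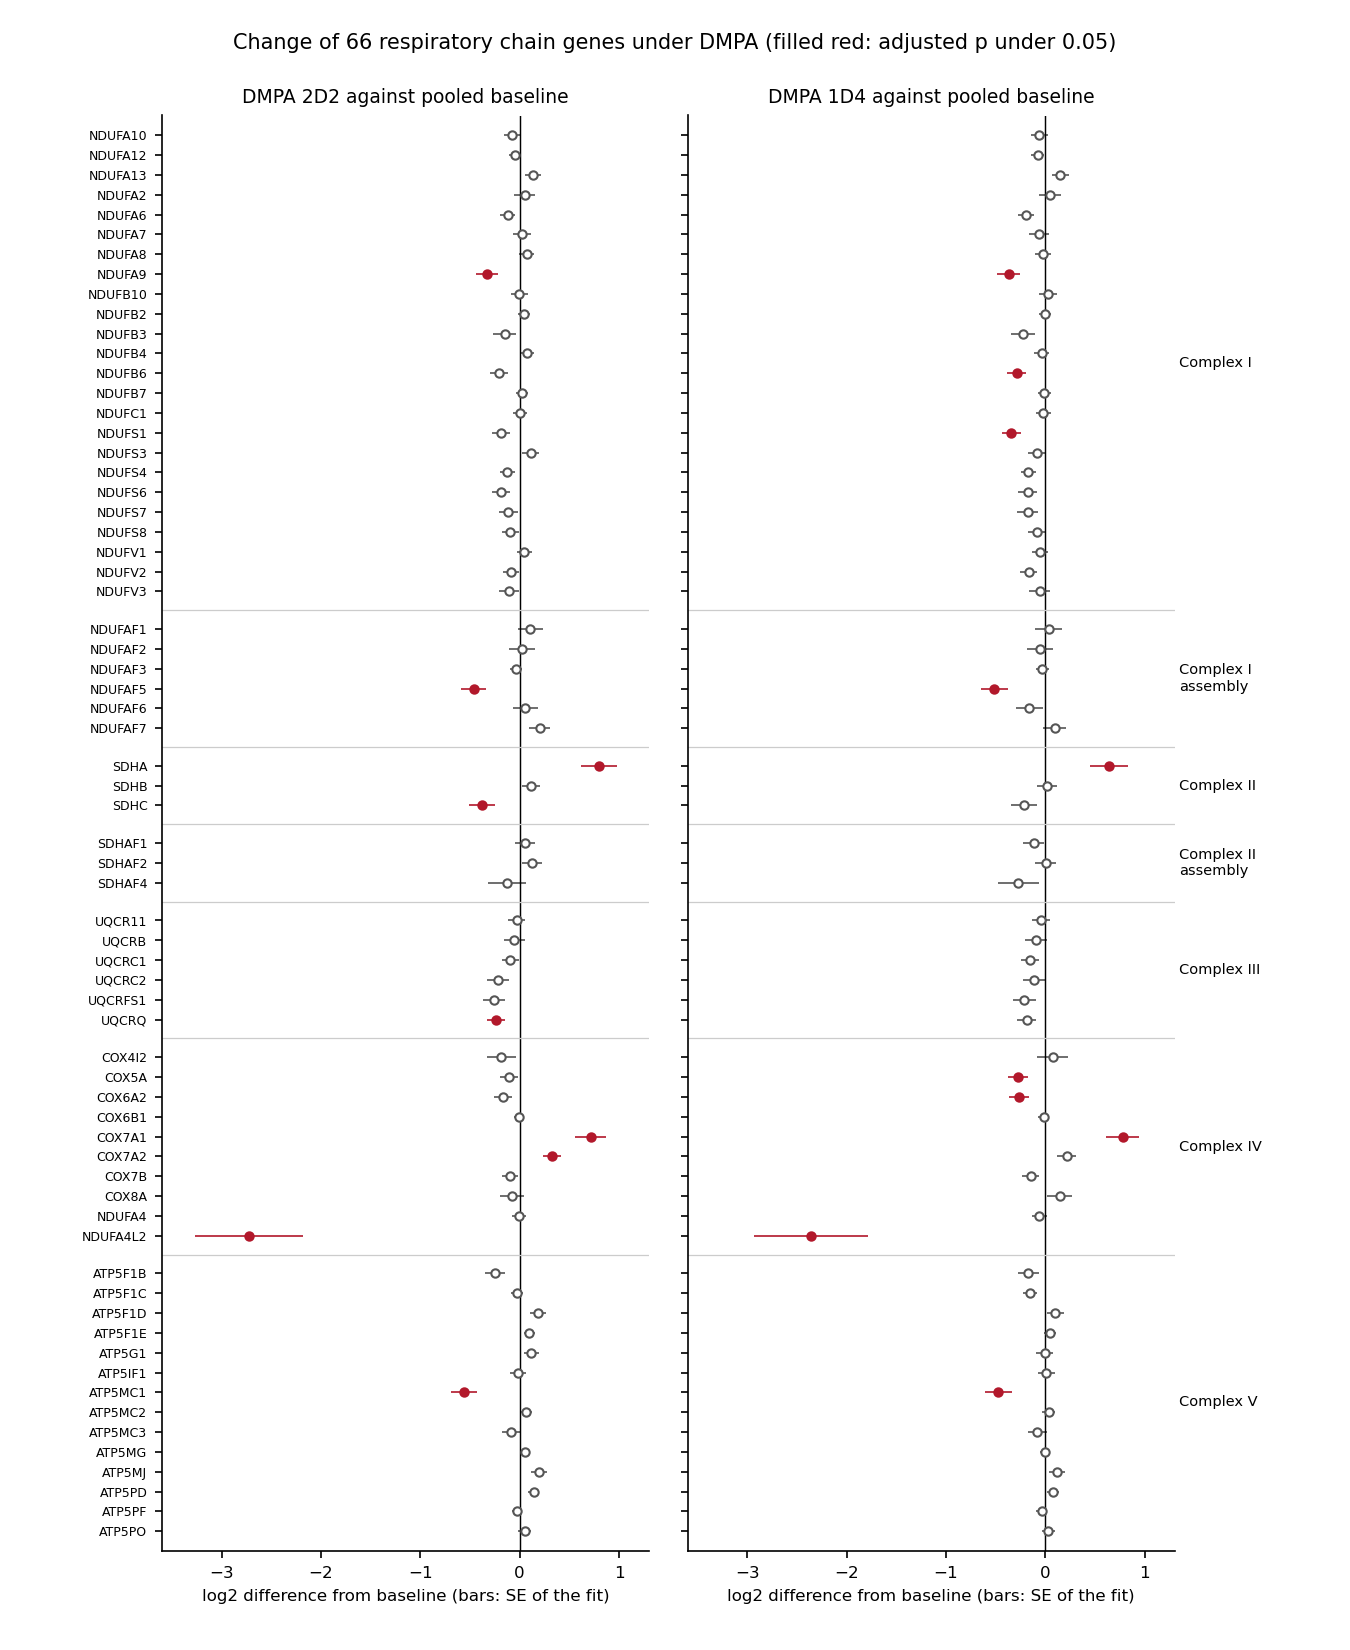
Log2 difference of each of the 66 genes from pooled baseline at DMPA 2D2 (left) and 1D4 (right), by complex; points are fitted differences, bars are SE, and filled red points passed at an adjusted p under 0.05 in limma. Both panels use the same baseline samples. NDUFA4L2 lies far below the other genes, at -2.72 and -2.36, and most other genes lie within 0.25 of no difference.

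BB770, labelled dose 0.5, was the animal that went against the falls of ATP5MC1, NDUFAF5, SDHC, NDUFA9 and UQCRQ at 2D2; each of these was lower in the other 8 animals. The mean of the 66 genes in BB770 was 0.24 above its own baseline. Without BB770, 14 of the 66 genes passed, 3 higher and 11 lower, and 9960 of all 31624 probe sets passed in that fit, up from 8874.

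At DMPA 1D4, the comparison with the same baseline samples gave 10 of 66 genes that passed in limma, against 25.8% of all genes. Of these, 2 were higher, beside 11.7% of all genes, and 8 were lower, beside 14.1% of all genes. The median difference was -0.06 for the 66 genes and 0.01 for all genes. COX7A1 rose by 0.78 ± 0.17 (SE, limma adjusted p = 0.00397), with a median of 11.39 (10.47 to 11.75), and was higher in 8 of 8 animals. SDHA rose by 0.64 ± 0.19 (limma adjusted p = 0.0170), with a median of 10.31 (9.85 to 10.64). NDUFA4L2 fell by 2.36 ± 0.57 (limma adjusted p = 0.00647), with a median of 6.69 (6.21 to 9.99). The animal PPi2, at the labelled dose 0.5, was higher than its own baseline in NDUFA4L2 at 1D4, by 1.13, and lower at 2D2. That baseline is the mean of an early follicular and a late luteal biopsy, which differed widely in genes of mature squamous epithelium.

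The other falls at 1D4 were smaller. NDUFAF5 fell by 0.51 ± 0.14 (SE), ATP5MC1 by 0.47 ± 0.13 and NDUFA9 by 0.37 ± 0.12, with limma adjusted p of 0.00940, 0.0138 and 0.0224. Complex I also had NDUFS1, the largest core subunit gene, which fell by 0.34 ± 0.10 from a baseline median of 10.06 (9.33 to 10.41) to 9.75 (9.25 to 10.23), with overlapping ranges. NDUFB6, an accessory subunit gene, fell by 0.29 ± 0.10. In complex IV, COX5A, a nuclear subunit gene of the oxidase, fell by 0.28 ± 0.10 (limma adjusted p = 0.0406) and COX6A2, the muscle form of subunit VIa, fell by 0.27 ± 0.10 (limma adjusted p = 0.0433). COX6A2 was dim, with a baseline median of 6.31. ATP5MC1, COX7A1, NDUFA4L2, NDUFA9, NDUFAF5 and SDHA passed at both times in 1 direction, and both times share the baseline samples. The count at 1D4 was 4 genes without BB0499, 4 without PHQ1 and 6 without BB981. Calls over all 31624 probe sets went from 7334 to 3093, 3091 and 3314 in the same fits. No gene passed between 2D2 and 1D4 directly, with 0% of all genes, and no respiratory chain gene had an unadjusted p under 0.05 (0 of 66, limma). The interval of the NDUFA4L2 difference between the times, -1.66 to 0.94, was wide.

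**Figure D3:**
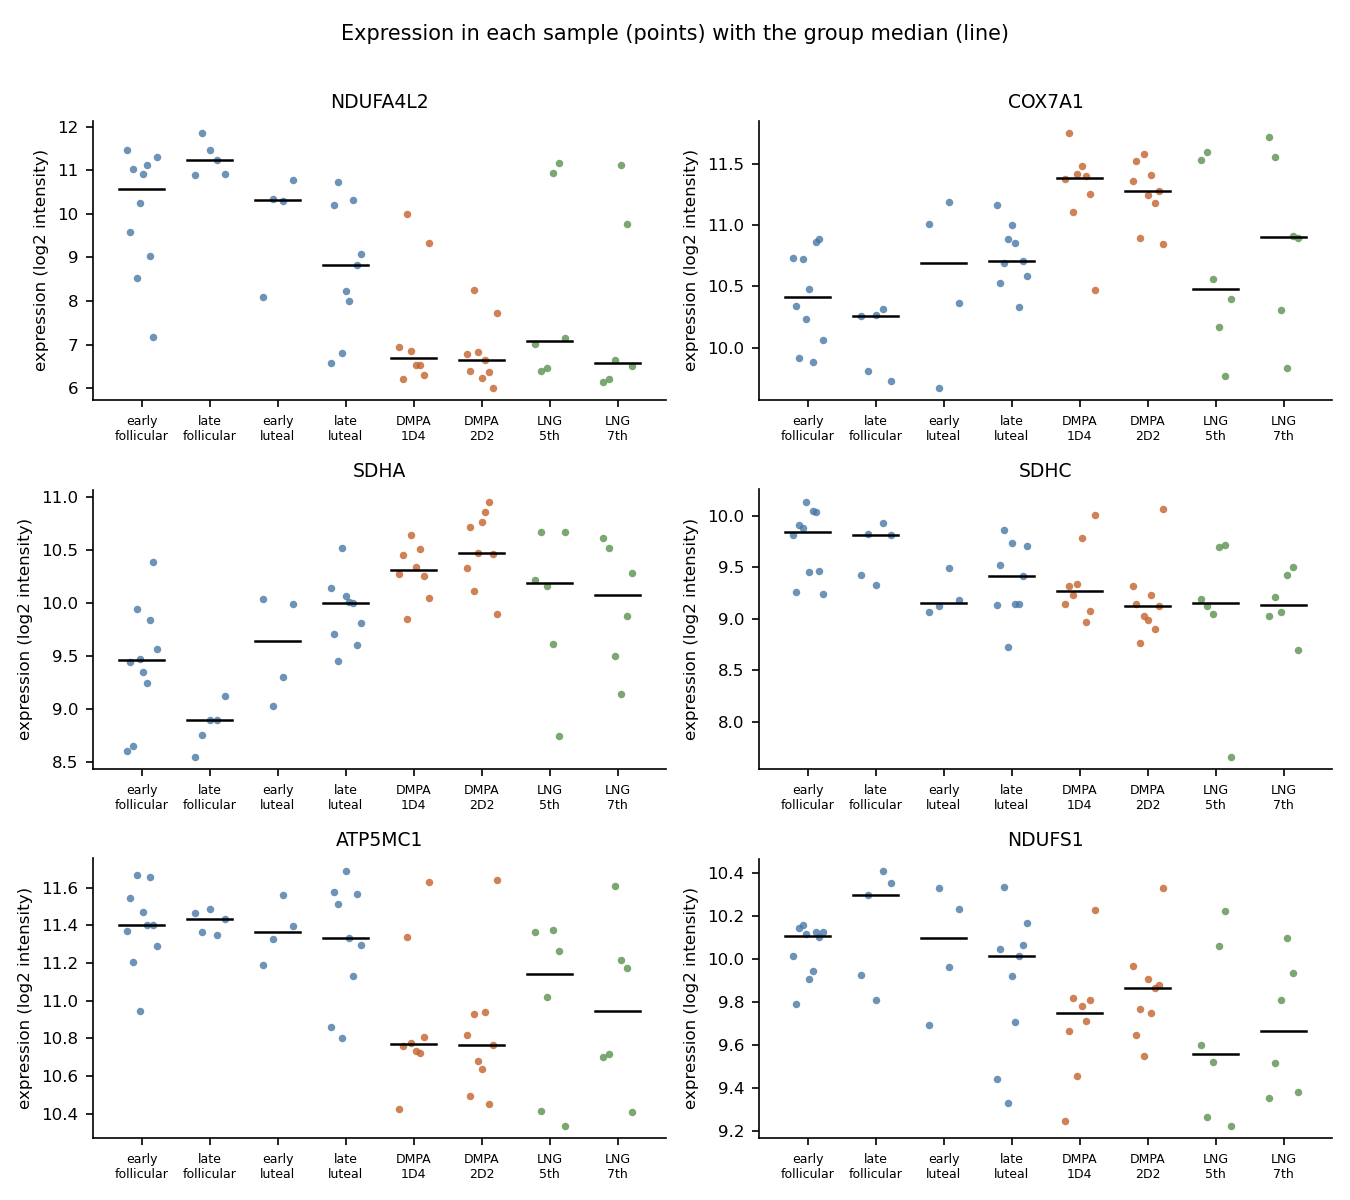
Log2 intensity of 6 genes in each sample, by cycle phase at baseline and by treated time; points are samples and lines are group medians. NDUFA4L2 has medians between 8.82 and 11.24 in the baseline phases and of 6.66 and 6.69 at the DMPA times, SDHA and COX7A1 are higher at the DMPA times, and the ranges overlap in all 6 genes.

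In the LNG arm no respiratory chain gene passed at either time, with 0% of all genes at 5th and 0% at 7th. At an unadjusted p under 0.05, limma gave 8 of 66 genes at 5th and 11 of 66 at 7th, beside 2723 and 2844 of all 11199 genes. The median difference was -0.08 at both times, beside -0.02 and -0.03 for all genes. The genes with the smallest p were SDHA, NDUFS1 and NDUFA4L2 at 5th and SDHA, NDUFA4L2 and NDUFAF5 at 7th, and none of them passed. With 1 animal left out, up to 3 genes passed: 3 at 5th without BB4870 and 3 at 7th without BB269. In those fits 3186 and 1094 of all 31624 probe sets passed.

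SDHA at LNG 5th had a median of 10.19 (8.75 to 10.67), with a difference of 0.83 ± 0.22 (SE, limma adjusted p = 0.0554). At 7th the difference was 0.81 ± 0.22 (limma adjusted p = 0.0605). NDUFA4L2 had a median of 7.08 at 5th (6.40 to 11.16) and 6.59 at 7th (6.16 to 11.11). Its differences were -1.95 ± 0.67 (limma adjusted p = 0.0910) and -2.40 ± 0.67 (limma adjusted p = 0.0605). NDUFS1 had differences of -0.33 ± 0.11 and -0.30 ± 0.11, and NDUFAF5 had one of -0.51 ± 0.16 at 7th.

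The LNG animals differed widely in NDUFA4L2. At 5th, its change from the animal's own baseline was -2.45, -4.41 and -3.75 in the 3 Low animals and -2.0, -0.08 and 0.28 in the 3 High animals. The High animals near 0 were BB269 and BB4870, and the array of BB4870 was the only one at 5th labelled (A-). The difference between High and Low was not tested. In the DMPA arm at 2D2, the changes at the labelled dose 0.5 were -0.61, -0.92 and -2.44, those at 1.5 were -3.88, -3.66 and -2.81, and those at 2.5 were -2.94, -2.84 and -4.43; an order by dose was not tested.

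No respiratory chain gene passed between LNG 7th and 5th, with 0% of all genes, and none had an unadjusted p under 0.05 in limma (0 of 66). The changes of DMPA at 2D2 and LNG at 5th were compared directly. None of the 66 genes passed, with 0% of all genes, and 1 of 66, COX4I2, had an unadjusted p under 0.05 in limma. COX4I2, the oxidase subunit form linked to low oxygen, differed by -0.60 ± 0.24 (SE) between the arms. For NDUFA4L2 the difference between the arms was -0.77, with an interval from -2.51 to 0.97, and for SDHA it was -0.04, with an interval from -0.62 to 0.55. The intervals are the 95% intervals of the fit and leave room for differences between the arms.

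**Figure D4:**
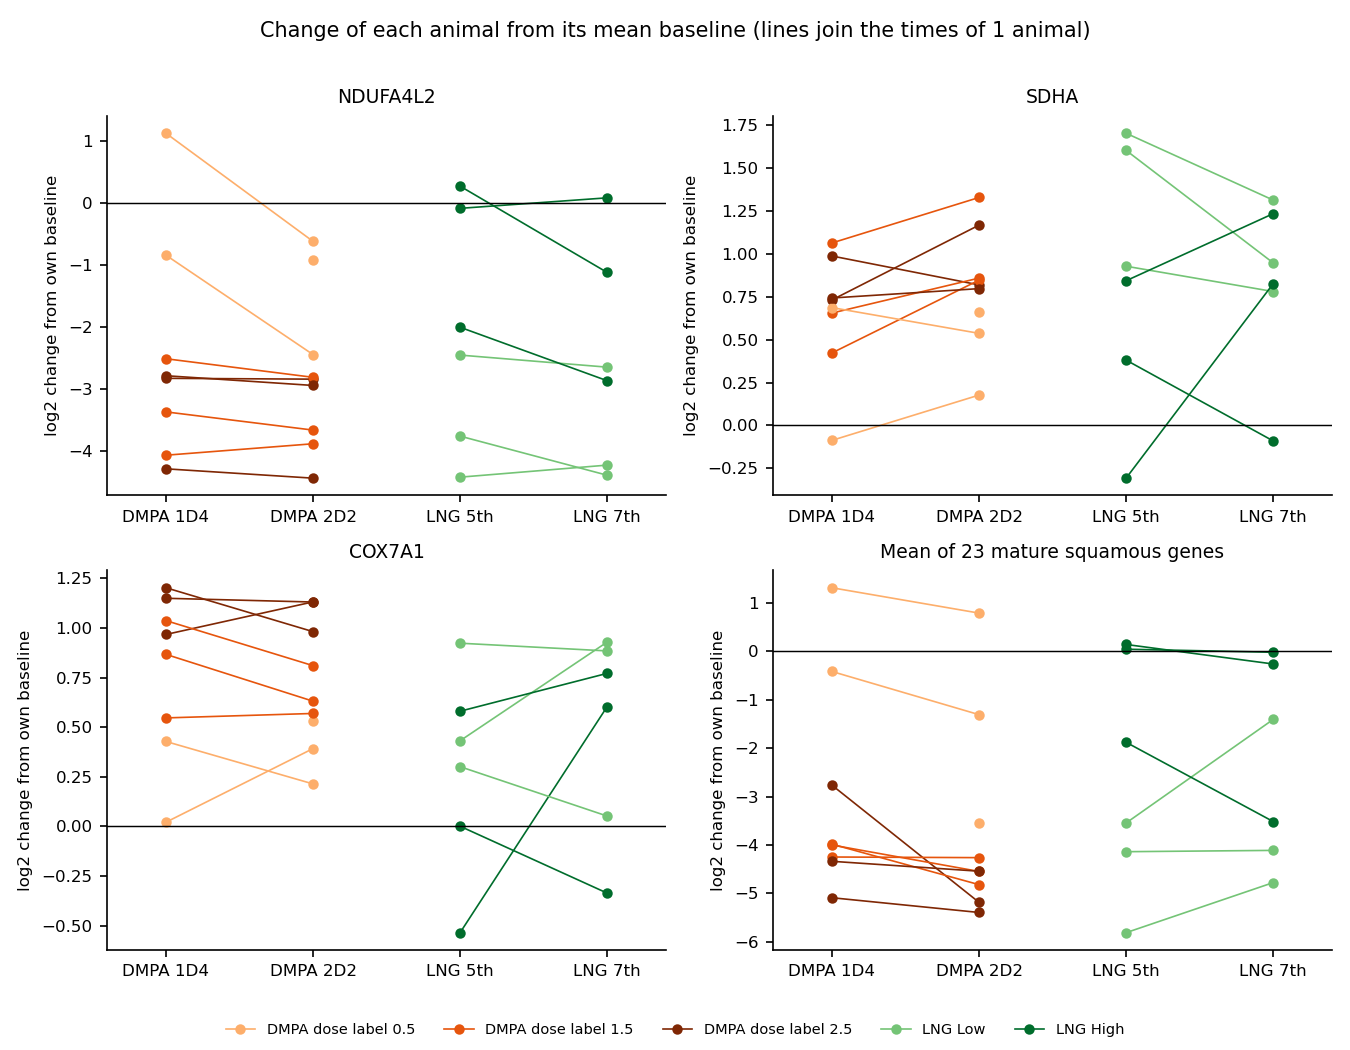
Log2 change of each animal from its own mean baseline for NDUFA4L2, SDHA, COX7A1 and the mean of 23 genes of mature squamous epithelium, at each treated time. Lines join the times of 1 animal and colours give the labelled dose. NDUFA4L2 at DMPA 2D2 is below baseline in 9 of 9 animals. At 5th, BB269 and BB4870 of the LNG arm lie near 0 in NDUFA4L2 and in the squamous mean, and the BB4870 array is labelled (A-).

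The baseline samples were compared across the cycle. Between the luteal and follicular phases no respiratory chain gene passed, against 3.31% of all genes, and 15 of 66 had an unadjusted p under 0.05 in limma, beside 3061 of all 11199 genes. The median difference was -0.11 for the 66 genes and -0.02 for all genes, and 10 of the 66 differences were above 0, beside 5271 of 11199 for all genes. NDUFA4L2 was highest in the late follicular phase, with a median of 11.24 (10.88 to 11.85), followed by early follicular at 10.57 (7.17 to 11.46), early luteal at 10.31 (8.10 to 10.77) and late luteal at 8.82 (6.57 to 10.74). Neighbouring phases overlapped, except that the late follicular samples all lay above those of both luteal phases. Its luteal minus follicular difference was -1.35 ± 0.55 (SE, limma adjusted p = 0.156). Other measures also differed between phases. The mean of mature squamous genes averaged 12.92 in late follicular and 11.84 in late luteal samples. The mean of fibroblast and smooth muscle genes averaged 8.34 and 9.89, and the GAPDH 3' minus 5' difference 1.50 and 1.81. The part of these measures in the order of the phases was not tested.

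The genes with the smallest p between the phases were SDHC, NDUFAF6 and NDUFA9. SDHC had a difference of -0.37 ± 0.09 (SE, limma adjusted p = 0.0535), NDUFAF6, an assembly factor gene, one of -0.35 ± 0.10, and NDUFA9 one of -0.32 ± 0.09. SDHA lay between 8.55 and 9.12 in the 5 late follicular samples and between 9.45 and 10.52 in the 9 late luteal samples, and these ranges did not overlap. This pair of phases was not among the planned comparisons and was not tested, and only BB269 and BB770 were sampled in both. The luteal minus follicular difference of SDHA was 0.56 ± 0.17 and did not pass (limma adjusted p = 0.0778). Between late and early follicular phases no gene passed, with 0% of all genes, and 0 of 66 had an unadjusted p under 0.05 in limma; SDHAF4, COX4I2 and SDHAF2 had the smallest p. Between late and early luteal phases none passed, with 0% of all genes, and 2 of 66 had an unadjusted p under 0.05 in limma, NDUFAF2 with a difference of 0.62 ± 0.24 and NDUFA13 with 0.41 ± 0.17, followed by UQCRB.

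Counts for other genes of mitochondrial energy metabolism at 2D2 are read against the 17.2% of all genes that were called higher and the 14.1% called lower. The lists are short, and their counts are given as a description. In the list of cytochrome c and coenzyme Q, 1 of 11 genes rose and 1 fell: COQ8A, of coenzyme Q synthesis, rose by 0.63 ± 0.12 (SE) and PDSS1, which makes its side chain, fell by 0.39 ± 0.13. In the citric acid cycle 3 of 9 genes fell and none rose, with SUCLA2 at -0.42 ± 0.11 and MDH2 at -0.42 ± 0.14. Of 10 genes for pyruvate entry and fatty acid oxidation 2 fell: ACADVL, the dehydrogenase of very long chain fatty acids, by 0.58 ± 0.12, and ETFDH, which passes electrons from fatty acid oxidation to coenzyme Q, by 0.33 ± 0.08. Of 7 genes for carriers and channels 2 fell, the outer membrane channel gene VDAC1 by 0.28 ± 0.09 and the ADP/ATP carrier gene SLC25A5 by 0.40 ± 0.13.

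Lists of mitochondrial assembly and control at 2D2 are set beside the same 17.2% higher and 14.1% lower of all genes. Of 13 genes for oxidase assembly, SURF1 fell by 0.24 ± 0.08 (SE), and none rose. Of 12 other assembly factor genes 2 rose, LYRM7 by 0.29 ± 0.11 and UQCC1 by 0.24 ± 0.09, both of complex III. Of 10 genes that control mitochondrial biogenesis 2 rose, the transcription factor genes GABPB1 by 0.30 ± 0.10 and NRF1 by 0.28 ± 0.10. Of 14 import genes 2 rose, TOMM7 by 0.24 ± 0.06 and TIMM9 by 0.25 ± 0.08. At 1D4, fatty acid oxidation and pyruvate entry had 4 of 10 genes that fell, beside 14.1% of all genes called lower at that time.

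Across samples the respiratory chain genes varied together. After animal means were removed, the median correlation of a gene with the mean of the others was 0.74 over 57 samples, and 52 of 66 genes were above 0.5. The genes outside the chain had a median of 0.14. NDUFS6 had the highest value, 0.88. The genes below 0 were SDHA at -0.46, COX7A2 at -0.31, COX7A1 at -0.27 and COX4I2 at -0.18, and NDUFA4L2 was at 0.18. The genes most like the mean of the 66 were LOC705494 at 0.95, MRPL32 at 0.92, LOC715222 and MRPS16 at 0.90, and MCTS1 at 0.90; MRPL32 and MRPS16 encode proteins of the mitochondrial ribosome. These correlations describe the samples, which share arrays and normalization.

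Other measures moved with the treated times. Of 23 measured genes of mature squamous epithelium 21 fell at 2D2, and their mean lay between 8.95 and 13.12 at baseline and between 7.18 and 11.72 at 2D2. Values on this scale have no 0, so no marker was at 0. The change of this mean at 2D2 was above 0 in 1 animal, PPi2, at 0.79, and PPi2 was also the animal nearest to its baseline in NDUFA4L2. The baseline of PPi2 averages unlike biopsies, at 12.90 in the early follicular and 8.95 in the late luteal phase, the lowest baseline value. Its value at 2D2, 11.71, lay between them. With this mean as a covariate, none of the 66 genes passed at 2D2 or 1D4, and the NDUFA4L2 difference was -0.11 at 2D2 (limma adjusted p = 1.00) and -0.26 at 1D4. SDHA was then at 0.01 at both times and COX7A1 at 0.18 and 0.35. This covariate was chosen after seeing the data, and the share of all genes that passed with it is not given here. Of 15 cell division genes 7 fell at 2D2 and 11 at 1D4, and of 11 columnar epithelium genes 7 and 5 rose.

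The gap between 3' and 5' probe sets of the GAPDH control, which grows as RNA is degraded, was 0.74 ± 0.57 (SD, n = 9) above the animals' own baseline at 2D2. It was higher in 8 of 9 animals (exact two-sided sign-flip permutation p = 0.00781, adjusted p = 0.0313 over 4 times). At 1D4 the change was 0.31, at LNG 5th 0.40 and at LNG 7th 0.47, with adjusted p of 0.0938, 0.0938 and 0.0625 in the same exact test; the unadjusted p at LNG 7th, 0.0313, is the smallest that 6 animals allow. With this difference as a covariate, 0 of 66 genes passed at 2D2 and 2 at 1D4, COX7A1 and NDUFA4L2, in limma. The 2D2 differences were then -1.09 for NDUFA4L2, 0.36 for COX7A1 and 0.24 for SDHA. The stroma score, the mean of fibroblast and smooth muscle genes, was 1.15 ± 1.19 (SD, n = 8) above baseline at 1D4 and 0.04 at 2D2; with it as a covariate 0 genes passed at 1D4 and 10 at 2D2. Of 6 measured striated muscle genes MYBPC1 rose at 2D2, by 4.52 ± 0.74 (SE), and the other 5 did not pass, beside the rise of COX7A1. The share of all genes that passed in these covariate fits is not given here, so the counts do not single out the respiratory chain. The part of RNA quality and of cell makeup in these results was not tested beyond these fits.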

How the data were processed

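Total RNA of vaginal biopsies was measured on Affymetrix arrays. The authors deposited log2 values, 1 column per array; the submitters' processing notes name affy and Partek without versions, and how background was corrected and arrays normalized was not given in the sources used here. Values were used as deposited. Control probe sets (158) were left out, and of the other 52707 probe sets, the dimmest, with a mean below the 40th percentile (5.53), were removed, leaving 31624 with 11199 named genes. Symbols came from the array annotation: 24969 probe sets carry 1 symbol, 361 several and 27535 none. A labelled duplicate array was averaged with its partner, giving 57 samples.

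Linear models used limma 3.58.1 under R 4.3.3, with the animal, as labelled, as a fixed block (statmod 1.5.0 for the random block), and p was adjusted by the Benjamini-Hochberg method over all 31624 probe sets; a gene passed at an adjusted p under 0.05. Treated times were compared with pooled baseline over all 57 samples, and cycle phases in the 28 baseline samples, with early and late phases weighted equally. Errors of differences are standard errors of the fit. Code was tested on simulated data. Percentages of all genes use the brightest probe set per gene.

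Members and lists were chosen with earlier results of these data known. Genes were named if among the 8 strongest increases or 8 strongest decreases that passed (up to 4 each way in minor comparisons; the 3 with the smallest p where fewer than 3 passed), core subunits and tissue-restricted forms of each complex, and up to 2 genes per other list. Other genes shown, among them NDUFA4, COX7A2 at its second probe set and further subunit c genes, were chosen after their values were seen. Alternatives covered the filter, centring, normalization, blocks, weights, probe set choice, covariates, doses and each animal left out.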

Additional observations from a re-analysis of the deposited data

Results flagged for a closer look

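Of 240 gene and group combinations examined for a single sample far from the others of its group, 25 were past the limit; chance gives about 1 in 20 groups. All values are log2 levels. In animal BB4800 at LNG 5th, the lowest of 6 samples, the levels were 10.47 for ATP5F1B, 8.90 for ATP5MC2, 10.74 for COX5A, 9.48 for COX8A, 5.73 for SDHAF4, 7.66 for SDHC and 10.01 for UQCRC1, and the mean of the 66 genes was 9.61. That biopsy also had the lowest squamous mean and the highest stroma score of all samples. BB4800 in the early luteal phase stood apart in COX8A at 10.16, NDUFB6 at 9.08, SDHB at 9.52 and UQCRC1 at 10.50.

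Animal BB770 was the high sample at DMPA 2D2 in ATP5MC1 at 11.64, NDUFA9 at 10.64 and SDHC at 10.07, at DMPA 1D4 in NDUFB6 at 9.87 and UQCRQ at 12.51, and in the late follicular phase in SDHB at 10.33. Animal BB981 stood apart in the early follicular phase in COX7A2 at 9.11, COX8A at 11.07 and NDUFAF5 at 9.08. The remaining samples that stood apart were COX4I2 in early follicular BB967 at 5.11, COX5A in late luteal PPi2 at 11.36, COX6A2 in BB4870 at LNG 5th at 6.80 and UQCRQ in early follicular BB173 at 11.87.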

How the results depend on the processing

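Counts are of the 66 genes that passed in limma. Calls over all probe sets changed too, so a changed count is not by itself a result about the respiratory chain. With each animal left out, all calls ranged from 5523 to 9960 at 2D2 and from 3091 to 8614 at 1D4. They ranged from 0 to 3186 at LNG 5th, 0 to 1094 at LNG 7th and 0 to 2336 between luteal and follicular phases. For the other settings, apart from quantile normalization, the share of all probe sets that passed is not given here. The counts under those settings therefore do not single out the respiratory chain. At DMPA 2D2 (9 as reported) the count was 16 with array weights, 16 without the animals at dose 0.5, 16 without the samples lowest in the mean of the 66 genes, 0 with the GAPDH difference and 0 with the squamous mean as a covariate, and 6 to 14 with each animal left out (14 without BB770). At 1D4 (10) it was 22 with array weights, 18 without dose 0.5, 2 with the GAPDH covariate, 0 with the stroma covariate, 0 with the squamous covariate, and 4 to 11 with each animal left out (4 without BB0499, 4 without PHQ1, 6 without BB981). At LNG 5th (0) it was 1 at the 60th percentile filter, 2 with array weights, 1 with 1 probe set per gene, 3 with phases as separate groups, 3 without the (A-) arrays, and 0 to 3 with each animal left out (1 without BB269, 3 without BB4870, 1 without PPi2). At LNG 7th (0) it was 1 with a random block, 2 at the 60th percentile filter, 5 with array weights, 3 with phases separate, and 0 to 3 with each animal left out (3 without BB269, 2 without PPi2). Between luteal and follicular phases (0) it was 7 with a random block, 1 at the 60th percentile filter, 2 with array weights, 1 with 1 probe set per gene, and 0 to 1 with each animal left out (1 without BB108, 1 without BB4870). For the other comparisons it was 0 under every setting run, with 0 to 0 for each animal left out. Without the replicate block of the animal it was 7 at 2D2, 7 at 1D4 and 0 elsewhere. Quantile normalization gave 7 higher and 5 lower at 2D2, beside 1724 higher and 1592 lower of all 11199 genes. Among genes that passed as reported, directions turned for ATP5MC1 (0.036 at 2D2 and 0.0054 at 1D4), SDHC (0.0039 at 2D2) and UQCRQ (0.0174 at 2D2) with the squamous covariate. The direction of SDHC also turned (0.0174 at 2D2) with the mean of its probe sets. The cause was not tested. The squamous covariate and the removal of the lowest samples were chosen after seeing the data. Of the values of single genes over all settings, 3608 kept direction and call, and 103 lost and 56 gained a call in the same direction. Direction changed in 175 values without a call in the main or the alternative fit, and in 5 values with a call.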
